A study of Mus musculus with 4 samples.

Results

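The 10 genes described here are 3 ligands of the bone morphogenetic protein (BMP) pathway (Bmp2, Bmp4, and Bmp7), the 4 Id genes (Id1, Id2, Id3, and Id4), and 3 inhibitors of the pathway (Smad6, Smad7, and Bambi). They were taken by symbol from the 31053 genes of 4 single-cell RNA sequencing libraries and measured in the cells that met the gene and mitochondrial limits of the study. Each library came from XY mouse cells and each condition had 1 library.

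BMP ligands bind pairs of type I and type II serine/threonine kinase receptors, which phosphorylate SMAD1, SMAD5, and SMAD9. These enter the nucleus with SMAD4 and activate target genes, among which the Id genes respond early in many cell types. Id proteins lack a DNA-binding domain and hold basic helix-loop-helix factors away from DNA, and they are commonly high in progenitors. Smad6, Smad7, and Bambi are themselves induced by the pathway and feed back on its receptors. In the early embryo BMP4 is known for its part in mesoderm formation, and BMP signals also act in the forming urogenital system.

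The study asked how closely gonadal somatic cells made from embryonic stem cells (ESCs) follow those of the embryo. The 3 in vivo libraries came from ICR embryos at E10.5, E11.5, and E12.5. Mesenchyme dorsal to the gonad stayed in the E10.5 dissection, and the older gonads (E11.5, E12.5) were freed of the mesonephros. The fourth library came from an ESC line labelled C57BL/6J (N271S9C), which is labelled as carrying Nr5a1-hCD27a (written Nr5a1-hCD271 in the methods of the study) and Sox9-2A-CGFP and which the study derived from a 129X1/SvJ × C57BL/6J cross, taken at day 6 (D6) of culture. The line was first turned into epiblast-like cells with FGF2 and Activin A. The later media held CHIR99021, EGF, retinoic acid, Sonic hedgehog, and PD0325901 as well as BMP4, which was given at 1 ng/ml from the start and at 20 ng/ml from D4 together with FGF9 at 2 ng/ml and IWR1 at 20 µM. The D6 cells were enriched with magnetic beads for the reporter protein at Nr5a1, a gene of gonadal somatic cells. No culture without BMP4 was analysed here, so the response to the added ligand cannot be told apart from the rest of the protocol. Strain, culture, enrichment, and kit (3′ v2 in vivo, v3 at D6) all differed between D6 and the embryo and cannot be told apart either. A protocol note in the labels speaks of female cells, but 55.7% to 80.5% of retained cells carried a UMI of a Y-linked gene and at most 1.05% one of Xist.

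Where 4 values follow each other below, they are in the order E10.5, E11.5, E12.5, D6. The libraries retained 3837, 2101, 2764, and 2285 cells, with 32508523, 24625441, 34173977, and 11906360 unique molecular identifiers (UMIs). The median cell held 8167, 11926, 10946, and 4607 UMIs, so the D6 cells were the shallowest. Levels are given as UMI counts per 1e6 UMIs of the library (CPM), with exact Poisson 95% intervals in parentheses, and shares as the percent of cells with at least 1 UMI. These intervals cover counting error only, and with 1 library per condition no test of the conditions was possible. The E10.5, E11.5, and E12.5 libraries shared 7 to 15 cell barcodes pairwise and D6 shared 0 with them. A lower sum in a library cannot be told apart as fewer expressing cells or less RNA per cell. Genes of neighbouring tissues were highest at E10.5, where the summed level of 3 sclerotome markers was 65.2 CPM against 4.77 to 25.6 CPM elsewhere and that of 3 neural markers was 92.1 CPM against 5.52 to 8.57 CPM. Their part in the results below was not tested.

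The windows upstream of the RefSeq start of Smad6, which was high at D6, and of Id4, whose D6 level overlapped the others, are shown so that the GC-rich elements bound by BMP-activated SMADs can be seen. Of the 10 genes, 5 had an entry in the RefSeq promoter table (GRCm38.p6). The windows run 5′ to 3′ on the strand of the gene. Capitals mark GGCGCC, or GGAGCC on either strand (printed as GGCTCC where it lies on the other strand). The Id4 window is chr13:48260866-48261115 on the plus strand and the Smad6 window is chr9:64022060-64022309 on the minus strand, both upstream of the annotated gene.
Id4: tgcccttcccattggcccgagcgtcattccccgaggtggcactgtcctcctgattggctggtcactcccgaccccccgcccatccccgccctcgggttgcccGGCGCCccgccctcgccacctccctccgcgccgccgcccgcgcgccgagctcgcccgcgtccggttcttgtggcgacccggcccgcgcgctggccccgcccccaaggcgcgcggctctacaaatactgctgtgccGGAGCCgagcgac
Smad6: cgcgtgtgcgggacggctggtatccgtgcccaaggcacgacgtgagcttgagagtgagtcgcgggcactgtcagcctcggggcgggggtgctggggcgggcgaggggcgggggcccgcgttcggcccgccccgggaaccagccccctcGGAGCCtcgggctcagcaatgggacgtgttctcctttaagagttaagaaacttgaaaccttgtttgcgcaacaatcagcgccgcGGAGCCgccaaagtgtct

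The Id4 window held 1 match to GGCGCC and 1 to GGAGCC, and the Smad6 window held 2 to GGAGCC and 0 to GGCGCC. No match overlapped another. Among all 32851 windows of 250 bases in the table, 9.59% held GGCGCC and 26.0% held GGAGCC. A match by letters is not a bound site.

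Among the ligands, Bmp4 was high at E10.5 and at D6 and low between them, whereas Bmp7 had its lowest level at D6. Bmp4 (chr14:46383520-46390669) encodes a secreted ligand of the BMP2/4 class. Its level was 68.1 CPM (65.3 to 71.0), 14.7 CPM (13.3 to 16.3), 16.6 CPM (15.3 to 18.05), and 45.0 CPM (41.3 to 49.0). The E11.5 and E12.5 intervals overlapped and the other libraries stood apart. Bmp4 fell 4.62-fold from E10.5 to E11.5 (ratio 0.217, exact conditional binomial interval 0.193 to 0.242) and was 2.71-fold (2.40 to 3.05) higher at D6 than at E12.5. The D6 level is that of the endogenous transcript as mapped to the mouse gene, since the ligand in the medium was a protein. A Bmp4 UMI was found in 29.0%, 10.8%, 14.6%, and 13.4% of cells, and in 8.86%, 2.10%, 2.39%, and 6.00% after each cell was thinned to 1500 UMIs, so at equal depth D6 was second to E10.5.

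Bmp7 (chr2:172868012-172940321), a ligand needed for nephron progenitors, was measured at 11.8 CPM (10.6 to 12.99), 21.8 CPM (20.0 to 23.7), 25.2 CPM (23.5 to 26.9), and 6.38 CPM (5.03 to 7.99). The E11.5 and E12.5 intervals overlapped at their edge, and D6 lay below every in vivo library. Bmp7 was 3.94-fold lower at D6 than at E12.5 (ratio 0.254, 0.198 to 0.321). Bmp2 (chr2:133552159-133562885), the closest relative of Bmp4, was sparse, with 58 to 242 UMIs in a library. Its level was 2.09 CPM (1.62 to 2.65), 9.83 CPM (8.63 to 11.1), 4.97 CPM (4.25 to 5.78), and 4.87 CPM (3.70 to 6.30). It was highest at E11.5, and the intervals at E12.5 and D6 overlapped. Bmp2 did not pass the minimum mean of 10 CPM used for counting calls.

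**Figure D1:**
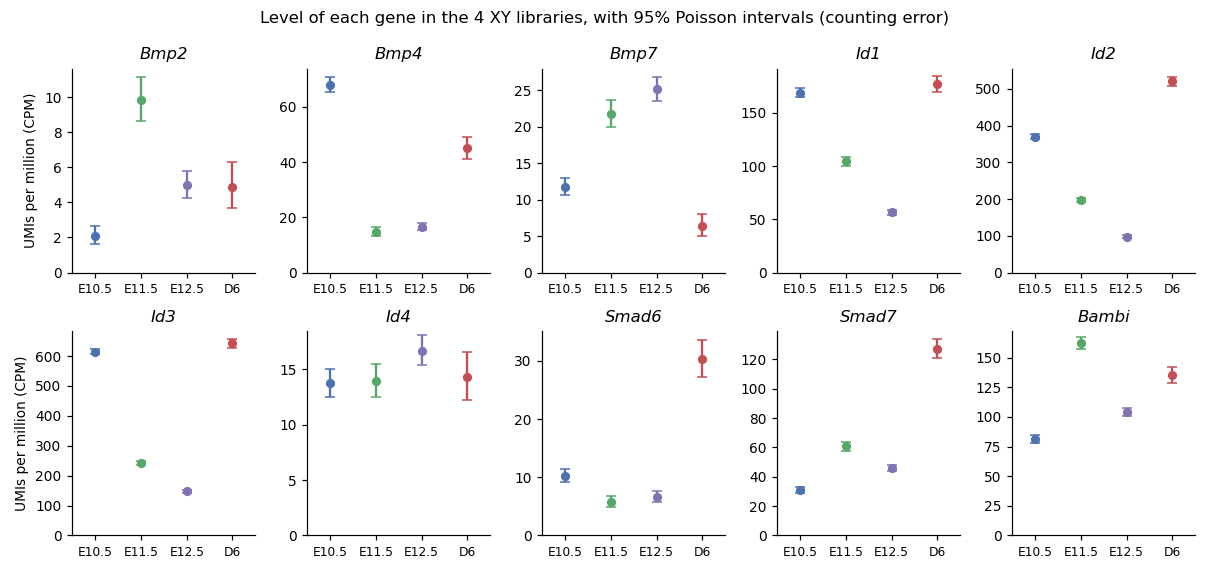
Level of each of the 10 genes (y axis, CPM, linear axis) in the 4 libraries (x axis), with points for the level and bars for the exact Poisson 95% interval. Id1, Id2, and Id3 are lower at each later embryonic stage and high at D6, whereas Id4 lies between 13.8 and 16.7 CPM in all 4 libraries and Bmp7 is lowest at D6.

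Id1, Id2, and Id3 shared 1 pattern, in which each later embryonic stage was lower than the one before and D6 was near E10.5. Id1 (chr2:152736251-152737410) is the Id gene most often used as a readout of BMP signaling. It was measured at 169 CPM (165 to 174), 104 CPM (100.4 to 109), 56.6 CPM (54.1 to 59.2), and 177 CPM (169.9 to 185). Only the intervals of E10.5 and D6 overlapped, and the ratio of D6 to E10.5 was 1.05 (0.997 to 1.10) by total UMIs and 0.733 with the trimmed mean of M values (TMM), a scaling that sets D6 lower. Id1 was 3.13-fold (2.94 to 3.33) higher at D6 than at E12.5.

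Id2 (chr12:25093799-25097140), which is also needed in lymphoid and mammary lineages, was measured at 369 CPM (363 to 376), 197 CPM (191 to 202), 97.8 CPM (94.5 to 101), and 520.1 CPM (507 to 533). No intervals overlapped, and the ratio of D6 to E10.5 was 1.41 (1.37 to 1.45) by total UMIs and 0.985 with TMM. Id2 fell 2.01-fold from E11.5 to E12.5 (ratio 0.497, 0.476 to 0.520) and was 5.32-fold (5.10 to 5.55) higher at D6 than at E12.5. Id3 (chr4:136143497-136145755), which overlaps in function with Id1 in the vasculature and the brain, was measured at 614 CPM (605 to 623), 243 CPM (237 to 249.6), 147 CPM (143 to 151), and 642 CPM (628 to 657). E10.5 and D6 were both high and had a ratio of D6 to E10.5 of 1.05 (1.02 to 1.07) by total UMIs and 0.731 with TMM, so no order of these 2 libraries is given for the 3 Id genes. Id3 fell 2.52-fold from E10.5 to E11.5 (ratio 0.396, 0.385 to 0.408) and was 4.36-fold (4.21 to 4.52) higher at D6 than at E12.5.

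Id4 (chr13:48261228-48266026), a regulator of neural and spermatogonial stem cells, did not follow the other 3. Its level was 13.8 CPM (12.505 to 15.1), 13.9 CPM (12.49 to 15.5), 16.7 CPM (15.4 to 18.1), and 14.3 CPM (12.2 to 16.6), and its D6 interval overlapped that of every in vivo library. The ratio of D6 to E12.5 was 0.855 (0.716 to 1.02) by total UMIs and 0.615 with TMM. The interval by total UMIs excludes a 2-fold difference as far as counting error goes.

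Without thinning the shares of cells with an Id1, Id2, or Id3 UMI were highest at E10.5, in deeper cells than those of D6. The Id4 share was highest at E12.5 (13.7%). Id3 was found in 79.7%, 60.4%, 57.9%, and 73.5% of cells, and in 49.9%, 25.4%, 17.7%, and 51.1% of cells thinned to 1500 UMIs. Id2 was found in 73.6%, 49.9%, 41.7%, and 71.9% of cells, or 35.9%, 21.0%, 13.2%, and 45.3% after thinning. Id1 was found in 55.5%, 43.5%, 32.7%, and 46.6% of cells, or 20.1%, 13.1%, 7.78%, and 20.7% after thinning. At equal depth the shares at D6 and E10.5 were thus close for Id1 and Id3, and the D6 share was the higher one for Id2. As a gauge of free RNA, the 51 cells at E10.5 in which globin made up at least 10% of UMIs, with a median of 17203 UMIs against 8167 for all cells, had an Id3 UMI in 11.8%, an Id2 UMI in 3.92%, and an Id1 UMI in 1.96%. The 21 such cells at E11.5 (median 15568 UMIs against 11926) had them in 4.76%, 9.52%, and 4.76%. At E10.5 the 18 Id2 UMIs of the globin-rich cells lay in 2 cells and the 22 Id3 UMIs in 6. At E11.5 their 6 Id2 UMIs lay in 2 cells, so for Id2 and Id3 these shares are only a rough gauge. Bmp4 was found in 0 of the 51 cells (a share of at most 5.88%) and Bambi in 15.7%. D6 had 0 such cells, so its free RNA could not be gauged in this way.

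Cells with UMIs of several Id genes were counted at equal depth. In cells thinned to 1500 UMIs, 31.7%, 55.3%, 68.5%, and 26.8% had a UMI of none of the 4 Id genes. Cells with UMIs of 2 Id genes made up 24.9%, 11.4%, 5.93%, and 27.9%, and cells with 3 made up 7.09%, 2.71%, 1.41%, and 8.32%. Thus D6 and E10.5 had the most cells with several Id genes and E12.5 the fewest. An Id3 UMI was found in 66.5% of thinned E10.5 cells with an Id1 UMI and in 45.7% of those without one. The same shares were 43.1% and 22.8% for E11.5, 35.8% and 16.1% for E12.5, and 66.2% and 47.1% for D6, higher beside Id1 in each library. These shares are over cells of 1 library each and describe that library.

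**Figure D2:**
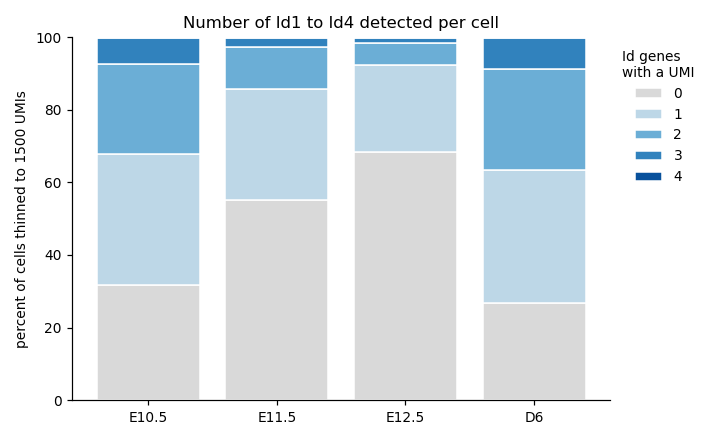
Percent of cells (y axis) in each of the 4 libraries (x axis), stacked by the number of Id genes with a UMI, after thinning each cell to 1500 UMIs. Cells with 0 Id genes make up 26.8% at D6 and 31.7% at E10.5, compared with 55.3% and 68.5% in the E11.5 and E12.5 libraries.

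The intracellular inhibitors were highest at D6. Smad6 (chr9:63953076-64022059) encodes the inhibitory SMAD that acts mainly on BMP receptors. It was measured at 10.3 CPM (9.20 to 11.4), 5.73 CPM (4.82 to 6.75), 6.67 CPM (5.83 to 7.60), and 30.3 CPM (27.3 to 33.6). D6 stood above the 3 in vivo libraries, among which E11.5 and E12.5 overlapped. At D6 Smad6 was 4.54-fold (3.84 to 5.39) higher than at E12.5, and 2.95-fold (2.54 to 3.43) higher than at E10.5. Smad7, the inhibitory SMAD of both the BMP and the TGF-β branch, was measured at 31.1 CPM (29.2 to 33.1), 60.9 CPM (57.8 to 64.0), 46.0 CPM (43.8 to 48.3), and 127 CPM (121 to 134). No intervals overlapped and D6 was the highest. Relative to E12.5 Smad7 was 2.77-fold (2.58 to 2.97) higher at D6, and relative to E10.5 it was 4.09-fold (3.77 to 4.43) higher.

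Bambi, a membrane protein that resembles a type I receptor without its kinase domain, peaked in vivo instead. It was measured at 81.2 CPM (78.1 to 84.3), 162 CPM (157 to 168), 104 CPM (101 to 108), and 135 CPM (129 to 142). No intervals overlapped, with E11.5 the highest and D6 between E12.5 and E11.5. Bambi was 2.00-fold (1.90 to 2.10) higher at E11.5 than at E10.5. Its ratio of D6 to E12.5 was 1.30 (1.22 to 1.38) by total UMIs and 0.935 with TMM, so no direction is given for it.

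Most of the calls among the 10 genes fell in the comparison of D6 with E12.5, and most of those were higher at D6. The same held over all genes, so nothing is read from this split. All genes had 1886 higher and 642 lower calls at D6 relative to E12.5. They had 827 and 404 from E10.5 to E11.5, and 100 and 131 from E11.5 to E12.5. A gene was called at a ratio of at least 2 or at most 0.5 among the 8479 genes with a mean of at least 10 CPM, and 9 of the 10 genes passed that minimum. From E10.5 to E11.5, 1 of the 9 (Bambi) was called higher against 9.75% of all genes, and 2 (Bmp4 and Id3) were called lower against 4.76%. From E11.5 to E12.5, 0 were called higher against 1.18%, and 1 (Id2) was called lower against 1.54%. The Id2 call lay on the 2-fold limit and was lost with all deposited barcodes, with 1 filter common to the libraries, and without germ, endothelial, macrophage, and globin-rich cells. At D6 relative to E12.5, 6 of the 9 (Bmp4, Id1, Id2, Id3, Smad6, and Smad7) were called higher against 22.2%, and 1 (Bmp7) was called lower against 7.57%. Smad6 reached the minimum only through its D6 level, so it had to be called and adds nothing to the count. The median log2 ratio of the 9 genes was -0.70, -0.40, and 1.47 in these comparisons, beside -0.08, 0.07, and 0.22 over all genes tested.

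The D6 comparison depended on scaling. With TMM the median log2 ratio of all genes at D6 over E12.5 shifted by -0.47 to -0.26, and the part of all calls that were higher went from 74.6% to 36.2%. Of the 9 genes, 4 were then called higher (Id1 at 2.25, Id2 at 3.83, Id3 at 3.14, and Smad6 at 3.27) against 11.3% of genes, and Bmp7 was called lower against 19.9%. With TMM too Smad6 reached the minimum only through its D6 level, so it had to be called and adds nothing to the count. The TMM ratios of Smad7 and Bmp4 were 1.99 and 1.95, just short of a call. In vivo, TMM gave backgrounds of 9.66% higher and 4.85% lower from E10.5 to E11.5, where 0 genes were called higher (Bambi at 1.996) and the same 2 were called lower, and of 1.12% and 1.65% from E11.5 to E12.5, where Id2 alone was called lower. Measured from the median of all genes, where the scaling cancels, the log2 ratios at D6 over E12.5 were 2.19 for Id2, 1.96 for Smad6, 1.91 for Id3, 1.43 for Id1, 1.25 for Smad7, 1.22 for Bmp4, 0.16 for Bambi, -0.45 for Id4, and -2.20 for Bmp7. Among control genes, Actb differed as much, at 10399 CPM at D6 and 2774 CPM at E12.5 (ratio 3.75), while Gapdh and Rplp0 had ratios of 0.753 and 0.538. The summed level of 9 genes induced by dissociation was 995, 898, 743, and 813 CPM from E10.5 to D6. Within it Egr1 and Hspa1b had D6 to E12.5 ratios of 3.03 (2.88 to 3.20) and 22.01 (10.9 to 50.1), whereas Fos, Jun, and Atf3 had ratios of 0.709, 0.786, and 0.576, and their part in the results was not tested.

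**Figure D3:**
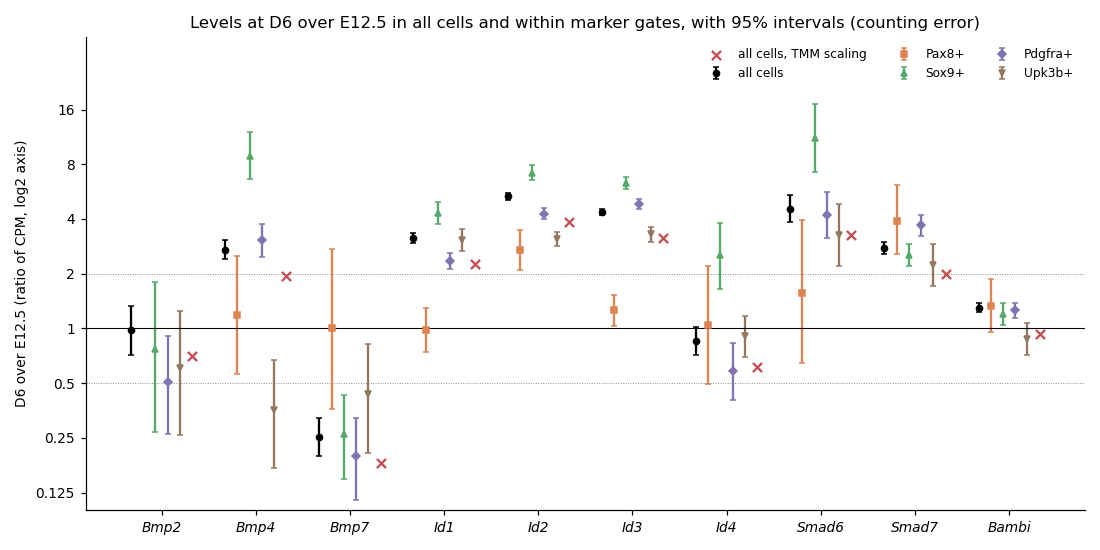
Ratio of the level at D6 to that at E12.5 (log axis) for each of the 10 genes, in all cells and within cells positive for each gate gene, with 95% counting intervals. Bmp2 within Pax8-positive cells is not drawn. By total UMIs Id2 lies above 2 in all cells and in all 4 gates, while Bmp4 runs from 0.355 in Upk3b-positive to 8.92 in Sox9-positive cells.

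Gates were set on the UMIs of 4 other genes, a cell being positive with at least 1 UMI. Pax8 marks intermediate mesoderm and the supporting-like cells of the early gonad, Sox9 marks Sertoli cells and some mesenchyme, Pdgfra marks interstitial and other mesenchyme, and Upk3b marks the coelomic epithelium and mesothelium. From E10.5 to D6 the gates held 95, 67, 44, and 97 Pax8-positive cells, 786, 768, 905, and 292 Sox9-positive cells, 917, 633, 1103, and 604 Pdgfra-positive cells, and 311, 308, 257, and 186 Upk3b-positive cells. A cell could lie in several gates. Germ, endothelial, macrophage, and globin-rich cells were left in the positive and negative cells. The Upk3b gate bore its label in each library, with all 5 of its further markers at least 2-fold higher in positive cells. The Sox9 gate had 0 of 6 further markers higher at E10.5 and 6, 6, and 5 later, the Pdgfra gate had 0, 2, 4, and 0 of 4, and the Pax8 gate had 6, 4, 1, and 5 of 7. At E10.5 Sox9-positive cells therefore did not carry the Sertoli markers, and the gates are named by their gene alone. Depth differed between positive and negative cells, most often toward deeper positive cells (a median of 6605 UMIs against 4512 in the Upk3b gate at D6) but also the other way (10338 against 11268 in the Pdgfra gate at E12.5), so only scaled levels are compared.

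In Upk3b-positive cells the 4 Id genes were mostly above the level of negative cells. Id4 was at 14.0 CPM in positive and 13.7 CPM in negative cells of E10.5, then at 33.3 and 9.80 CPM, 70.5 and 10.3 CPM, and 64.1 and 8.36 CPM. The ratio was near 1 at E10.5 (1.02, 0.719 to 1.41) and at the later stages and D6 was 3.40 (2.72 to 4.23), 6.83 (5.77 to 8.08), and 7.67 (5.60 to 10.48). The even level of Id4 across whole libraries by total UMIs thus held a positive gate that was 5.03-fold (3.59 to 7.20) higher at E12.5 than at E10.5. Id2 was at 453 and 361 CPM, 375 and 159 CPM, 255 and 79.0 CPM, and 791 and 488 CPM in positive and negative cells, with ratios of 1.25, 2.36, 3.23, and 1.62. Id1 had ratios of 1.42, 2.43, 2.06, and 2.00, and Id3 of 1.27, 1.66, 1.71, and 1.23. All 4 Id genes were therefore at or above the level of negative cells in each library, and the Id4 interval at E10.5 alone included 1.

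Bmp4 in Upk3b-positive cells turned the other way at D6. Its level in positive and negative cells was 142 and 61.0 CPM, 20.4 and 13.5 CPM, 24.5 and 15.7 CPM, and 8.71 and 49.3 CPM. Positive cells were thus the higher group in vivo and the lower group at D6, with a ratio of 2.33 (2.08 to 2.59) at E10.5 and of 0.176 (0.0876 to 0.318), or 5.67-fold lower, at D6. Only 11 UMIs stood behind the D6 value. Among the inhibitors, Smad6 was above the level of negative cells in all 4 libraries (ratios 2.05, 2.06, 2.42, and 1.61) but its in vivo means were under the minimum for a call. Smad7 was below it except at E10.5, with ratios of 1.28, 0.699, 0.777, and 0.614. Bmp2 had a ratio of 2.85 (1.97 to 4.05) at E12.5, on 43 UMIs in positive cells, and its intervals in the other libraries included 1.

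A gene was counted within a gate at a mean of at least 20 CPM over positive and negative cells and at least 50 UMIs. In the Upk3b gate the calls were Bmp4 at E10.5 against a background of 1.48% of genes higher (1.03% lower), Id1, Id2, and Id4 at E11.5 against 1.7% (3.2% lower), the same 3 at E12.5 against 3.3% (4.02% lower), and Id1 and Id4 at D6 against 3.2%, with Bmp4 the single lower call against 3.93%. The Id1 ratio at D6 lay on the 2-fold limit. Id4 reached the minimum only through the positive cells, and Bmp4 at D6 only through the negative cells, so these had to differ once they were counted, and nothing is read from their calls.

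In Pax8-positive cells Id1 differed little between E10.5 and E12.5. Id1 was at 244 CPM in positive and 167 CPM in negative cells of E10.5, then at 187 and 102 CPM, 208 and 54.1 CPM, and 204 and 176 CPM. The ratios were 1.46 (1.27 to 1.67), 1.84 (1.54 to 2.17), 3.85 (3.17 to 4.64), and 1.16 (0.942 to 1.41), highest at E12.5. Within the positive cells the ratio of E12.5 to E10.5 was 0.854 (0.677 to 1.07), compared with 0.292 (0.262 to 0.324) within Sox9-positive cells. Id3 was at 1022 and 602 CPM, 544 and 233 CPM, 358 and 144 CPM, and 450.4 and 651 CPM in positive and negative cells, so that the positive cells were the higher group in vivo and the lower one at D6 (ratio 0.692, 0.604 to 0.790). Id4 was at 62.3 and 12.4 CPM at E10.5, a ratio of 5.04 (3.74 to 6.68), and at 31.7 and 13.5 CPM at D6, a ratio of 2.35 (1.31 to 3.94). Bmp2 was found in 0 of the 67 positive cells at E11.5, a share of at most 4.48%.

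The calls in the Pax8 gate were Id4 at E10.5 (background 2.65% higher and 1.81% lower), Bmp4 and Id3 at E11.5 (2.78% and 3.06%), Id1 and Id3 at E12.5 (2.2% and 3.21%), and Id4 at D6 (5.36% and 4.96%), all of them higher. Id4 at E10.5 and D6 and Bmp4 at E11.5 reached the minimum only through the positive cells, so nothing is read from these calls. At E12.5 only 1 of the 7 further markers of this gate was higher in its 44 cells, so these values describe cells with a Pax8 UMI and no named cell type.

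**Figure D4:**
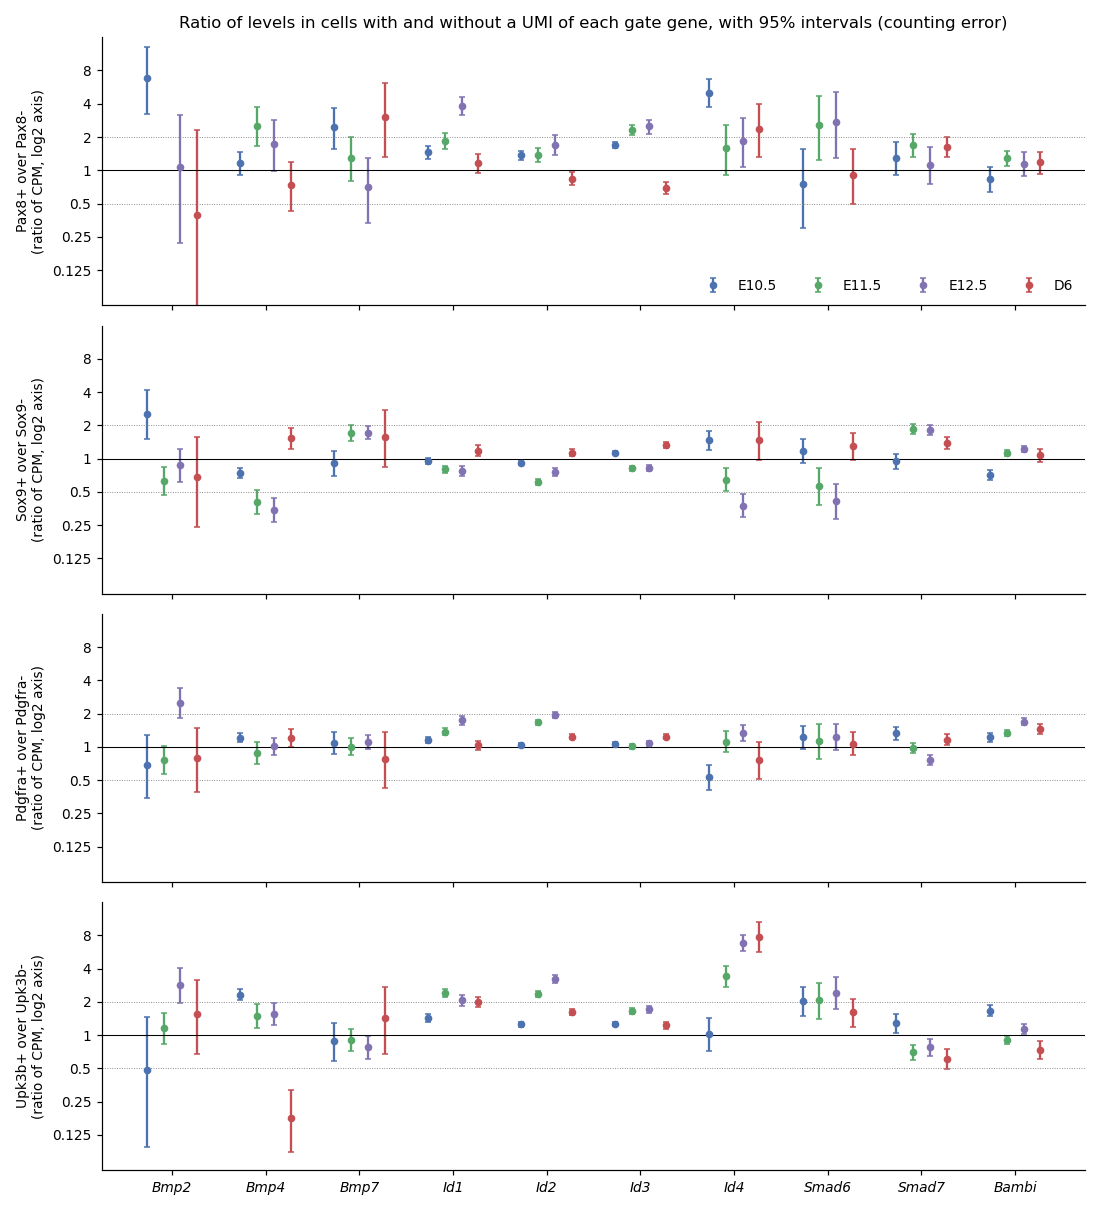
Ratio of the level in gate-positive to that in gate-negative cells (log axis) for each of the 10 genes in each library, with 1 panel per gate gene and 95% counting intervals. Bmp2 at E11.5 in the Pax8 panel had 0 UMIs and is not drawn, and its D6 interval runs off the axis. Id4 in the Upk3b panel lies at 3.40 to 7.67 except at E10.5 (1.02).

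In Sox9-positive cells Bmp4 was low at E11.5 and E12.5 and high at D6. Its level in positive and negative cells was 53.7 and 72.3 CPM, 7.87 and 19.4 CPM, 7.14 and 20.9 CPM, and 63.7 and 41.9 CPM. The ratio was below 1 in the 3 in vivo libraries (0.743, 0.406, and 0.341) and 1.52 (1.22 to 1.88) at D6. Bmp7 and Smad7 ran the opposite way at E11.5 and E12.5, while their E10.5 ratios of 0.904 (0.697 to 1.16) and 0.942 (0.807 to 1.10) had intervals that included 1. At E11.5 Bmp7 was at 28.8 and 17.0 CPM, and at E12.5 it was at 35.3 and 20.6 CPM, ratios of 1.70 (1.43 to 2.02) and 1.72 (1.496 to 1.97). At E11.5 Smad7 was at 84.0 and 45.3 CPM, and at E12.5 it was at 66.3 and 36.8 CPM, ratios of 1.86 (1.67 to 2.06) and 1.80 (1.63 to 1.99). Smad6 had the reverse ratio, 0.567 (0.382 to 0.828) and 0.414 (0.282 to 0.594), so the 2 inhibitory SMADs differed in direction in the same cells. Id4 was at 7.80 and 20.7 CPM at E12.5, a ratio of 0.376 (0.294 to 0.475).

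The Sox9 gate was mixed, and at E12.5 its cells without a UMI of the other 3 gate genes were lower still in Id1, Id2, and Id4. Id3 is not given for these sets, and its ratio by Pdgfra over all cells of E12.5 was 1.07 (1.01 to 1.14). At E12.5 the 604 cells positive for Sox9 alone had 19.9 CPM of Id1 (16.7 to 23.5), 48.0 CPM of Id2 (42.9 to 53.5), 2.21 CPM of Id4 (1.24 to 3.64), and 2.501 CPM of Bmp4 (1.46 to 4.004). The 259 cells positive for Sox9 and Pdgfra had 90.6 CPM of Id1 (80.7 to 101), 123 CPM of Id2 (112 to 136), 10.9 CPM of Id4 (7.62 to 15.1), and 15.4 CPM of Bmp4 (11.47 to 20.3). No interval of the 2 sets overlapped for these 4 genes. At D6 the 164 cells positive for Sox9 alone had 173 CPM of Id1 (147 to 202) and 82.8 CPM of Bmp4 (65.4 to 104), against 205 CPM (168 to 247) and 57.3 CPM (38.7 to 81.9) in the 85 cells positive for both, and here the intervals overlapped. These sets were chosen after their values were seen.

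None of the genes that passed the minimum was called in the Sox9 gate or in the Pdgfra gate. The Sox9 ratios of Bmp2 at E10.5, of Bmp4 at E11.5, and of Bmp4, Id4, and Smad6 at E12.5 lay past 2-fold. So did the Pdgfra ratio of Bmp2 at E12.5 (2.49, 1.81 to 3.43). The means of these genes there were under 20 CPM. The Sox9 backgrounds were 0.417% higher and 0.816% lower for E10.5, then 5.9% and 1.48%, 7.47% and 2.64%, and 1.41% and 0.662%. The Pdgfra backgrounds were 0.0909% higher and 0.836% lower for E10.5, then 0.809% and 0.971%, 5.94% and 5.03%, and 0.304% and 1.24%. In Pdgfra-positive cells Id2 came nearest to a call among the genes that passed the minimum. It was at 141 CPM against 72.5 CPM in negative cells at E12.5 (ratio 1.94, 1.81 to 2.08). Bambi was above the negative cells in all 4 libraries, with ratios of 1.22, 1.33, 1.69, and 1.46. At E12.5 the 446 germ cells, which were left in the comparison, had 12.7 CPM of Id2 and 20.7 CPM of Bambi. Ratios without them are not given here, so no enrichment over other somatic cells is read from these values.

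Within gates and by total UMIs, Id2 and Smad7 were called higher for D6 over E12.5 in all 4, and Id1 and Id3 in all but that of Pax8. TMM ratios are not given within gates, so calls near the limit may not hold with that scaling. In whole libraries a ratio of 2.77 for Smad7 became 1.99 with TMM. Smaller ratios within gates were 2.23 and 2.52 for Smad7 (Upk3b and Sox9), 2.36 for Id1 (Pdgfra), and 2.69 for Id2 (Pax8). In Sox9-positive cells 6 of the 8 genes that passed the minimum (Bmp4, Id1, Id2, Id3, Smad6, and Smad7) were called higher against 22.7% of genes, and Bmp7 was called lower against 8.04%. In Pdgfra-positive cells 5 of 6 (Bmp4, Id1, Id2, Id3, and Smad7) were called higher against 23.3% and 0 lower against 6.73%. In Upk3b-positive cells 5 of 7 (Id1, Id2, Id3, Smad6, and Smad7) were called higher against 20.5% and 0 lower against 4.99%. In Pax8-positive cells 2 of 5 (Id2 and Smad7) were called higher against 21.6% and 0 lower against 15.4%. In cells with a UMI of none of the 4 gate genes, Id1, Id2, Id3, and Smad7 were called higher against 27.4% and 0 lower against 11.6%. Germ cells, set by markers as described below, numbered 446 at E12.5 and 2 at D6. At E12.5 they had 8.19 CPM of Id1 and 12.7 CPM of Id2. How many of them lay in this set is not given, and their part in its calls was not tested. Bmp4 in the Sox9 and Pdgfra gates and Smad6 in the Sox9 and Upk3b gates reached the minimum only through D6, and Bmp7 in the Sox9 gate only through E12.5, so nothing is read from these calls.

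The size of the D6 difference varied with the gate. The Bmp4 ratio of D6 to E12.5 was 8.92 (6.60 to 12.1) in Sox9-positive, 3.06 (2.48 to 3.77) in Pdgfra-positive, 1.18 (0.563 to 2.505) in Pax8-positive, and 0.355 (0.171 to 0.667) in Upk3b-positive cells. Id1 had a ratio of 4.31 (3.75 to 4.95) in Sox9-positive and of 0.981 (0.746 to 1.29) in Pax8-positive cells, whose interval excludes a 2-fold difference either way. Smad6 reached 11.1 (7.29 to 17.2) in Sox9-positive cells, from 3.38 CPM at E12.5 to 37.6 CPM at D6. Smad7 lay between 2.23 and 3.92 in all 4 gates. The differences between gates were not tested.

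Cell types set by markers other than the gate genes also carried the genes, and their cells could lie in a gate as well. Germ cells, counted by at least 3 of 5 markers, numbered 9, 190, 446, and 2 from E10.5 to D6. At E12.5 they had 28.5 CPM of Bmp4, 8.19 CPM of Id1, 12.7 CPM of Id2, and 93.3 CPM of Id3, so that the stage with most germ cells held a group low in Id genes. Endothelial cells numbered 49, 33, 29, and 14, and had an Id3 level of 670, 483, 555, and 328 CPM. With the germ, endothelial, macrophage, and globin-rich cells left out, 6 genes were called higher and 1 lower at D6 relative to E12.5. No share over all genes is given for these cells, so nothing is read from this count.

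The D6 cells were enriched through a reporter at Nr5a1, so Nr5a1-positive and Nr5a1-negative cells were also compared, a gate added after the data were seen. At D6 Id3 was at 323 CPM in the 664 positive and 814 CPM in the 1621 negative cells, a ratio of 0.397 (0.374 to 0.421). Bmp4 was likewise lower, at 24.7 and 56.0 CPM (ratio 0.441, 0.352 to 0.548), whereas Bmp7 was higher, at 10.1 and 4.40 CPM (ratio 2.29, 1.42 to 3.71). These directions were shared by E11.5 and E12.5, with ratios of 0.691 and 0.751 for Id3, 0.298 and 0.363 for Bmp4, and 1.69 and 1.70 for Bmp7. At E10.5 the ratios were 1.55 for Id3, 0.575 for Bmp4, and 0.355 for Bmp7, the last on 3 UMIs in positive cells.

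Of 35 other genes of the pathway, 12 passed the minimum of 10 CPM, and those called at D6 were 4 receptors, 3 SMADs, and 1 extracellular modulator. At D6 relative to E12.5, 8 of the 12 were called higher and 0 lower, beside the 22.2% and 7.57% of all genes, with a median log2 ratio of 1.30 beside 0.22. The type II receptor Bmpr2 was at 16.6, 25.2, 24.2, and 107 CPM from E10.5 to D6, a D6 to E12.5 ratio of 4.43. The type I receptor Bmpr1a was at 34.5, 30.8, 29.9, and 85.0 CPM, a ratio of 2.84. The common partner Smad4 was at 32.9, 22.1, 21.1, and 77.8 CPM, a ratio of 3.68. D6 was the highest library for each of these 3 genes. The receptors Acvr1 (2.78) and Acvr2a (3.29), the receptor-activated Smad1 (2.41) and Smad5 (2.48), and the extracellular modulator Twsg1 (2.44) were the other 5. With TMM 5 of the 12 were called higher against 11.3% of genes, and none was called lower (lowest ratio 0.585, Acvr2b). The 1 lower call, against 19.9%, was Sostdc1 (0.0119), which is outside the 12. It passed the minimum only with TMM and only through E12.5, so nothing is read from that call. Acvr2a reached the minimum only through D6, and Msx1 only through E10.5. Nothing is therefore read from the Acvr2a call at D6.

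In vivo fewer of the 12 were called. With no minimum on the level, the calls over all 35 were 6 higher and 17 lower from E10.5 to E11.5 and 19 and 4 at D6 relative to E12.5. No share over all genes without a minimum is given, so nothing is read from these counts. From E10.5 to E11.5, Acvr1 (4.11), Smad5 (2.43), and Hey1 (2.06), a target shared with Notch signaling, were called higher, and the receptor Acvr2b (0.351) and Msx1 (0.254), a homeobox target of BMP signals, were called lower, against 9.75% and 4.76% of all genes, with a median log2 ratio of 0.06. Because Msx1 reached the minimum only through E10.5, nothing is read from its lower call from E10.5 to E11.5. From E11.5 to E12.5, 0 were called higher and Msx1 was called lower (0.344), against 1.18% and 1.54%, with a median of -0.14. Msx1 was thus at 28.5, 7.23, 2.49, and 4.87 CPM, and unlike Id1, Id2, and Id3 it was not high at D6. The other listed targets were mixed. Atoh8, below the minimum, had a ratio of 2.65 (2.00 to 3.53) for D6 to E12.5 and of 0.919 for D6 to E10.5. The D6 to E12.5 ratios of Msx2, Hey1, and Dlx5 were 0.980, 0.842, and 0.574, the last with an interval of 0.0121 to 5.13. Smad9, also below the minimum, had a D6 to E12.5 ratio of 29.3 (14.8 to 66.2). None of the 8 other ligands passed the minimum, and Bmp5 was highest at E10.5, at 11.01, 0.325, 1.84, and 3.95 CPM. Among the extracellular modulators below the minimum, Bmper was at 6.86, 1.26, 2.14, and 29.1 CPM, highest at D6. Sostdc1, a secreted antagonist, was at 6.64, 1.66, 30.4, and 0.504 CPM, highest at E12.5 and lowest at D6.

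**Figure D5:**
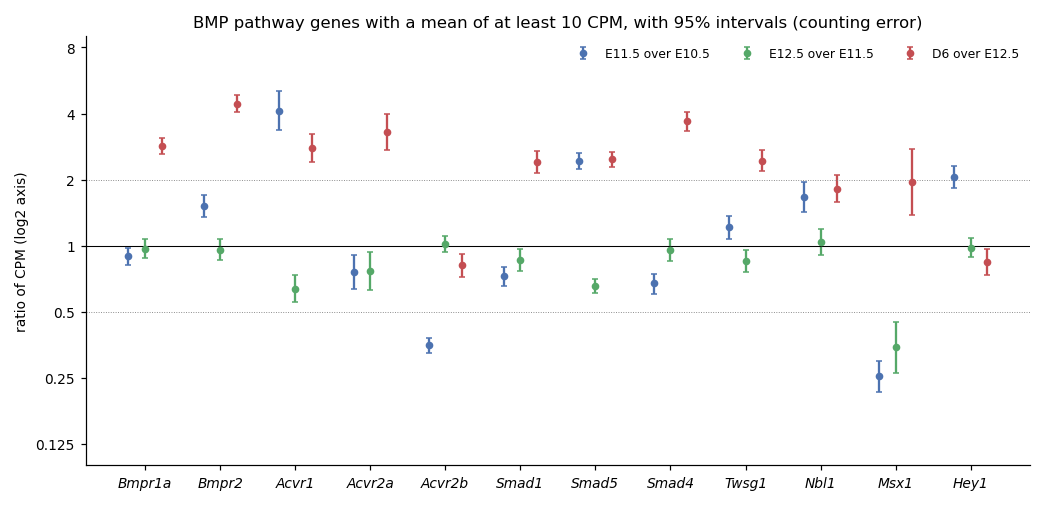
Ratio of the level between libraries for the pathway genes with a mean of at least 10 CPM, in each of the 3 comparisons. At D6 relative to E12.5, 8 of the 12 pathway genes lie past 2-fold higher and none past 2-fold lower.

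Genes whose levels ran most like those of the 10 were sought over 20 profiles (each library as a whole and in its 4 gates) among 3070 genes with a mean of at least 50 CPM, by Pearson's r of log2(CPM + 10). These profiles share cells and libraries, so r only describes them. The nearest gene to Id1 was Id3 (0.895) followed by Id2 (0.880), and Id2 and Id3 had an r of 0.900 with each other. Foxp1, a forkhead factor, was nearest to Id3 (0.902), and Tdg, a DNA glycosylase, was nearest to Id2 (0.902). Emx2, a homeobox gene of the urogenital epithelium, was nearest to Id4 (0.710). Srp68 (0.845) and Dlk1 (0.844), a Notch-related membrane protein, were nearest to Bmp4, Cox14 (0.939) was nearest to Bmp7, Prpf8 (0.939) to Smad6, and mt-Co1 (0.963) to Smad7. Bambi and Bmp2 had Gm47547 (0.848) and Hoxd9 (0.773) as their nearest genes.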

How the data were processed

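Single-cell RNA sequencing counts were measured in 4 libraries of XY mouse cells, 1 per condition. The authors aligned the reads to mm10 and deposited raw UMI counts per gene and cell barcode. Per the labels and the study's methods Cell Ranger 3.0.2 was used, while the file headers give 6.0.0. The deposited matrices held no normalization and no cell annotation.

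Cells were kept by the study's limits: over 1000 and under 4000 genes with under 10% mitochondrial UMIs at E10.5, over 500 and under 5000 with under 20% at E11.5, over 2000 and under 5000 with under 8% at E12.5, and over 1000 and under 4000 with under 12% at D6, the share being that of 13 mitochondrial genes. Doublets were left in, and Scrublet (scanpy 1.11.5, expecting 0.8% per 1000 cells) called 132, 35, 27, and 46 cells, removed in an alternative. In E10.5 and D6 the automatic threshold was not used and the expected number with the highest scores was taken. Counts were summed per library and gate and divided by total UMIs (CPM). TMM factors (edgeR 4.0.16, R 4.3.3) over the 4 sums were 0.907, 0.909, 0.934, and 1.30. Intervals are exact at 95% (Poisson for levels, conditional binomial for ratios) and cover counting error only. The level of 3 UMIs was 0.0923, 0.122, 0.0878, and 0.252 CPM. For thinned shares cells under 1500 UMIs were left out, 147 at E11.5 and 1 at D6. The software was Python 3.11.15 with scipy 1.17.1, numpy 2.4.6, pandas 2.3.3, and, for plots, matplotlib 3.10.9. On data simulated for D6 over E12.5 over 8479 genes, 95.6% of ratio intervals held the true ratio, and 100% of 200 changed genes had the right direction.

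The 10 genes and the lists were chosen with earlier results of these data known. The genes named were all 10, the pathway genes past 2-fold or given as examples, the gate genes, 9 dissociation genes, 3 control genes, and the 3 genes most like each of the 10, of which the nearest is given. Gene positions are from GENCODE M21 on mm10 (GRCm38). No replicate check exists. Alternatives were another scaling, other cell filters, removal of doublets or of 4 cell types, other gates, no low-count filter, and a 1.5-fold limit.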

Additional observations from a re-analysis of the deposited data

Results flagged for a closer look

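For 9 gene and gate pairs the ratio of gate-positive to gate-negative cells lay above 1 in one library and below 1 in another, with counting intervals on opposite sides of 1 and the higher ratio at least 2-fold the lower. Pairs that turned by less, such as Id2 in the Sox9 gate (1.13 at D6 and 0.609 at E11.5), are not listed. These were found by looking over all 10 genes, 4 gates, and 4 libraries, and the difference between the libraries was not tested. Each kept both directions under the alternatives run for it.

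In Upk3b-positive cells Bmp4 had a ratio of 2.33 at E10.5 and 0.176 at D6, Smad7 of 1.28 and 0.614, and Bambi of 1.67 and 0.738. In Sox9-positive cells Bmp4 had a ratio of 1.52 at D6 and 0.341 at E12.5, and among cells positive for exactly 1 gate gene these were 1.91 and 0.108. Bmp2 had a ratio of 2.54 at E10.5 and 0.628 at E11.5 in the same gate, on few UMIs, and Id4 of 1.46 at E10.5 and 0.376 at E12.5. In Pax8-positive cells Id2 had a ratio of 1.69 at E12.5 and 0.841 at D6, and Id3 of 2.49 and 0.692. In Pdgfra-positive cells Id4 had a ratio of 1.33 at E12.5 and 0.530 at E10.5.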

How the results depend on the processing

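No paired analysis was possible because each condition had 1 library, and for the same reason no library could be left out. At D6 relative to E12.5 the 6 higher calls became 4 with TMM and stayed at 6 in the other alternatives, and 1 gene was called lower in each of them. From E10.5 to E11.5 the single higher call became 0 with TMM, 3 when scaled without mitochondrial, ribosomal, and globin genes, 2 with all barcodes, with the common filter, and without the 4 cell types, and 3 at 1.5-fold, and the 2 lower calls became 5 at 1.5-fold. From E11.5 to E12.5 the single lower call became 0 with all barcodes, with the common filter, and without the 4 cell types, and 4 at 1.5-fold. For pathway genes with no filter on low values, higher and lower calls were 6 and 17 from E10.5 to E11.5, 5 and 3 from E11.5 to E12.5, and 19 and 4 at D6. With TMM they had 1 higher call from E11.5 to E12.5, and 5 higher and 1 lower at D6. Scaled without mitochondrial, ribosomal, and globin genes, or without the 4 cell types (both chosen for these genes after seeing the data, as were all barcodes and the common filter), they had 4 lower from E10.5 to E11.5, 1 higher from E11.5 to E12.5, and 2 lower at D6. In the Pax8 gate the 6 higher calls became 14 with a gate of 2 UMIs and 11 without the 4 cell types. In the Sox9 gate the 0 calls became 2 higher and 3 lower with a gate of 2 UMIs, 4 higher in cells of exactly 1 gate, 1 lower without the 4 cell types, and 3 lower with scaling without mitochondrial, ribosomal, and globin genes. In the Pdgfra gate 2 were higher in cells of exactly 1 gate. Shares over all genes are given only for the main calls and for TMM between libraries. The other counts, with and without a filter on low values, therefore show only that calls move, and nothing is read from them about the genes. The cause was not tested. Of 180 ratios between libraries recomputed, 36 left the counting interval and 5 changed sign, of which 0 were calls. Of 954 gate ratios, 171 left it and 52 changed sign, of which 0 were calls. Depth limits Bmp2, with 58 to 242 UMIs in a library, and the sparse genes within the Pax8 gate.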

Other observations

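Cells with and without a Bmp4 UMI differed in some of the other genes, in a direction that varied with the library. This split was chosen after the values were seen. At E10.5 cells with a Bmp4 UMI had 2.21-fold (2.04 to 2.38) the Bambi level of cells without one, and 1.57-fold (1.49 to 1.66) the Id1 level. At E11.5 the same ratios were 0.920 (0.835 to 1.01) for Bambi and 1.44 (1.30 to 1.59) for Id1. At E12.5 they were 0.633 (0.572 to 0.699) and 0.922 (0.817 to 1.04), and at D6 they were 1.10 (0.955 to 1.25) and 1.16 (1.03 to 1.30). Of the 404 cells with a Bmp4 UMI at E12.5, 174 were germ cells. All germ cells of that library together had 20.7 CPM of Bambi and 8.19 CPM of Id1. Their part in these ratios was not tested. Cells with a Bmp7 UMI had less Id2 in each library, with ratios of 0.867, 0.752, 0.714, and 0.587 from E10.5 to D6. The differences between libraries were not tested.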
